A study of Mus musculus with 6 samples.

Results

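The insulin-like growth factor (IGF) axis was followed in mouse primary hepatocytes given LRG1, a secreted leucine-rich glycoprotein. Its members here were 10 genes taken by symbol from 22609 gene rows: Igf1, Igf1r, Igf2r, Igfals, Igfbp1, Igfbp2, Igfbp3, Igfbp4, Igfbp5 and Igfbp7. All 10 had a row in every library, and 9 had enough reads to be tested; Igfbp5 did not. The LRG1 group held 3 libraries from cells exposed to 20 µg/mL LRG1 protein for 16 h, and the PBS group 3 libraries from cells given phosphate-buffered saline for the same time. Hepatocytes of both groups came from wild-type C57BL/6 male mice aged 4 months. The source of the protein, the culture medium, its insulin or serum content and whether replicates came from separate mice were not stated in the labels, so p-values refer to the spread among these libraries, part or all of which could be technical.

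IGF1 is a growth factor that the liver secretes into the blood, mainly under the control of growth hormone. It acts through the tyrosine kinase receptor IGF1R, which adult hepatocytes carry at low levels, while IGF2R takes up IGF2 for breakdown and sorts lysosomal enzymes. In the circulation most IGF1 is held by binding proteins (IGFBPs), of which IGFBP3 and IGFBP5 form a ternary complex with the acid-labile subunit encoded by Igfals. IGFBP1 is a short-term regulator whose gene insulin represses, IGFBP2 and IGFBP4 are further carriers, and IGFBP7 binds IGFs weakly.

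Gene counts summed to 18625748 to 23036332 per library. Replicates of a group correlated across genes at a Pearson r of 0.997 to 0.998 in log2 CPM (reads scaled to a common library total), and libraries of different groups at 0.967 to 0.970. Replicates differed by more than sampling noise (chi-square per degree of freedom 2.91 to 4.18), so none was counted as a repeat of another. The cells expressed hepatocyte markers, with albumin (Alb) highest at 18555 CPM in LRG1 cells and 19235 CPM in PBS cells. The lowest of those tested was Cps1, at 8.44 CPM in LRG1 cells and 36.3 CPM in PBS cells. One of the 10 markers listed for hepatocytes was not analysed here, and of the 9 tested 5 were lower with LRG1.

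With LRG1, transcripts of the ligand gene Igf1 and of Igf1r and Igf2r were higher, and the binding proteins moved in different directions. Igf1 was 3.03-fold higher, Igf1r 3.32-fold, Igfbp7 1.97-fold, Igfbp3 1.42-fold and Igf2r 1.27-fold higher. Igfbp4 was 2.70-fold lower and Igfbp1 2.06-fold lower. Of the 9 tested members, 5 rose, 2 fell, and Igfals and Igfbp2 did not pass the threshold of an adjusted p of 0.05. Across all 12301 tested genes, 25.5% rose, 25.8% fell and 51.4% passed in either direction. Of these 9 members, 4 (Igf1, Igf1r, Igfbp1 and Igfbp4) passed with a difference of at least 2-fold, against 9.50% of all tested genes. The median log2 fold change of the tested members was 0.35, and that of all tested genes 0.0093. The LRG1 libraries lay wholly above or wholly below the PBS libraries for 8 of the 9 members, as they did for 57.6% of all tested genes. The members were chosen with earlier results of these data known. These contrasts with all tested genes therefore do not show that the axis stands out.

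**Figure D1:**
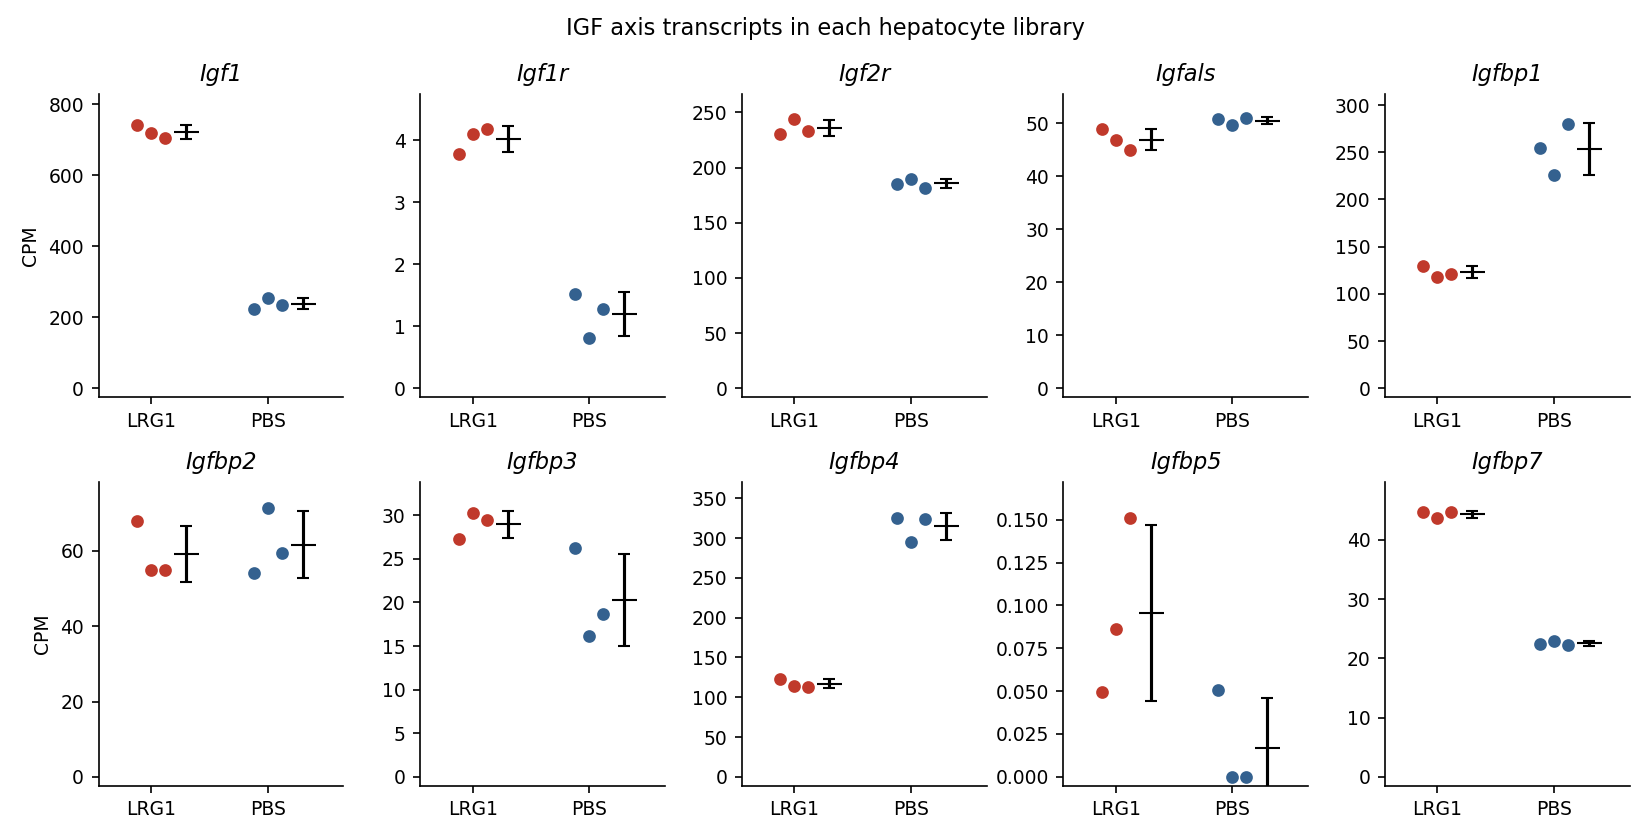
Expression of each of the 10 IGF axis genes in CPM (vertical axes, each from 0) in the 3 LRG1 libraries (red) and the 3 PBS libraries (blue). Points are libraries and the bar beside them is the mean with its SD; Igf1 shows the LRG1 points at 705 to 743 CPM, above the PBS points, while Igfbp4 shows them at 113 to 123 CPM, below.

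The sequences before the annotated starts of Igf1, Igfbp1 and Igfbp4 are shown because these genes had the smallest p-values of the axis and moved in opposite directions. Each line gives the 250 bases upstream of a RefSeq transcription start on build GRCm38.p6, read 5′ to 3′ on the gene's strand, with motif matches in capitals. The Igf1 window is chr10:87860861-87861110 on the plus strand, before an annotated start within the gene. The Igfbp1 window is chr11:7197537-7197786 and the Igfbp4 window chr11:99040994-99041243, both on the plus strand. The read counts themselves were made on build mm9, so these coordinates serve the sequences alone.
Igf1: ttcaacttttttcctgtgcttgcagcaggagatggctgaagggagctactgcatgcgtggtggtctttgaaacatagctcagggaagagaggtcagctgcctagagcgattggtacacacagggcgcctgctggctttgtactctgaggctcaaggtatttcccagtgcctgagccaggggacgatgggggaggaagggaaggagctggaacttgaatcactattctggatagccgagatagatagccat
Igfbp1: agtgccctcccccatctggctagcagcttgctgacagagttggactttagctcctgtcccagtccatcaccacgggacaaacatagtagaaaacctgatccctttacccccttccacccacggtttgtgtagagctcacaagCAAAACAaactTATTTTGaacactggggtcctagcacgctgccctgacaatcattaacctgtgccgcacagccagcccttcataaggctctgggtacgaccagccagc
Igfbp4: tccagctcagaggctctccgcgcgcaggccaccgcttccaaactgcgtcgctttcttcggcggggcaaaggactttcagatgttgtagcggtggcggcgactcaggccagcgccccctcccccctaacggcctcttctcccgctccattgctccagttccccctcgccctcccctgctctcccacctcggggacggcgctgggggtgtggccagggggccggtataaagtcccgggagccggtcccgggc
The capitals in the Igfbp1 window mark both sides of the insulin response element described for the human and rat gene. CAAAACA stands at -108 to -102 relative to the start, and CAAAATA stands on the opposite strand at -97 to -91. On either strand, CAAAACA was present in 5.56% of the 32851 windows of this length in the table and CAAAATA in 3.95%. Among the 13 windows listed for the 10 members, each occurred in 1, that of Igfbp1.

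Further motifs were searched on both strands in the same windows; all motifs were chosen after the expression values were seen. The forkhead core GTAAACA occurred in 1 of the 13 member windows, one of those of Igfals, and in 3.17% of all windows. The STAT motif TTCNNNGAA occurred in 2 of 13, both of Igfals, and in 7.02% of all. The short SMAD element CAGAC occurred in 4 of 13 (Igfbp2, Igf1r, Igf2r and Igfals) and in 42.2% of all. For Igf1r, Igf2r and the Igfbp2 window that begins at 72824230, the bases after the start were not found in a GENCODE transcript of the gene. The SMAD palindrome GTCTAGAC and the HNF1 motif, a palindrome with a free middle base, occurred in 0 of 13, and in 0.167% and 0.00913% of all windows. Both are so rare that finding none in 13 windows was nearly certain beforehand. Only exact matches were counted, so looser sites for these factors would be missed. No 2 motifs overlapped in a member window, and a match is a description of the letters only. Whether these cells use the starts shown is not known.

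Base composition set the windows apart in another way. Those of Igf1 and Igfbp1 had 52.8% and 53.2% G or C with 5 CG dinucleotides each, near the medians of all windows, 52.4% and 6. Those of Igfbp4, Igfbp3, Igfbp7 and Igf1r had 69.2%, 73.2%, 74.0% and 77.6% G or C and 22, 32, 26 and 42 CG dinucleotides. Genes that rose and genes that fell were found at both compositions. The Igf1 window lies before a start within the gene, and the Igf1r start had no transcript match. Either composition may therefore not describe the start in use.

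Igf1, the ligand, had 743, 720 and 705 CPM in LRG1 replicates 1 to 3, against 225, 256 and 236 CPM in PBS replicates 1 to 3. The lowest LRG1 library held far more Igf1 reads, for its size, than the highest PBS library. Its log2 fold change was 1.60 (SE 0.044), an adjusted p of 7.47e-19 in edgeR's quasi-likelihood test, and the 95% interval of the fold ran from 2.84 to 3.23. Igf1 had the smallest p of the members, the 62nd smallest of all tested genes. Igf2, the second ligand of the axis and not a member here, had 1 read in each group and was not tested.

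Igf1r, the receptor of IGF1, was scarce in every library. It had 76, 95 and 83 reads (3.78, 4.10 and 4.18 CPM) in LRG1 cells and 30, 15 and 24 reads (1.52, 0.809 and 1.27 CPM) in PBS cells. The groups did not overlap, but with so few reads the fold was the least precise of the tested members, with a 95% interval of 2.47 to 4.48 (log2 fold change 1.73, SE 0.21, adjusted p = 1.93e-07). Igf2r, the IGF2 and mannose 6-phosphate receptor, was abundant, with 230, 244 and 233 CPM in LRG1 cells and 185, 190 and 182 CPM in PBS cells. Its log2 fold change was 0.35 (SE 0.039, adjusted p = 7.95e-08), small beside those of Igf1 and Igf1r. The Airn transcript runs through Igf2r on the opposite strand, but their annotated exons share no base.

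Igfbp4, a carrier cleaved by the protease PAPP-A, had the largest decrease. It had 123, 114 and 113 CPM in LRG1 cells, against 325, 295 and 324 CPM in PBS cells. The groups were far apart and each was narrow, giving a log2 fold change of -1.43 (SE 0.046, adjusted p = 1.23e-17). Igfbp1, the insulin-repressed carrier, had 130, 118 and 121 CPM in LRG1 cells and 255, 226 and 280 CPM in PBS cells. All 3 LRG1 libraries were below every PBS library (log2 fold change -1.04, SE 0.057, adjusted p = 2.43e-13).

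Igfbp7, the low-affinity binder, had 44.8, 43.7 and 44.6 CPM in LRG1 cells and 22.4, 22.9 and 22.2 CPM in PBS cells. Its replicates were tightly grouped under both treatments, and the log2 fold change was 0.98 (SE 0.060, adjusted p = 1.88e-12). A stretch of 85 bases, 7.03% of its annotated exon length, is shared with exons of Polr2b on the opposite strand, and the strand setting of the counting is not known.

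Igfbp3, the main carrier of circulating IGF1, had 27.2, 30.3 and 29.4 CPM in LRG1 cells and 26.2, 16.1 and 18.6 CPM in PBS cells. PBS replicate 1 lay close to the LRG1 libraries, and the groups were separated only narrowly. The log2 fold change was 0.51 (SE 0.11, adjusted p = 0.000448). It was 0.74 without PBS replicate 1 and 0.37 without PBS replicate 2, with adjusted p of 2.04e-07 and 0.00456. In DESeq2 the adjusted p was 0.0477, and over all 15 alternatives it ran from 5.00e-11 to 0.0477. Igfbp3 lies next to Igfbp1 on chromosome 11, so these neighbours differed in opposite directions.

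The remaining members showed no difference that passed. Igfals, the acid-labile subunit, had 48.9, 46.9 and 44.9 CPM in LRG1 cells and 50.8, 49.6 and 50.9 CPM in PBS cells. Every LRG1 library was slightly below the PBS libraries, yet the 95% interval of the log2 fold change ran from -0.22 to 0.0047 (log2 fold change -0.11, SE 0.053, adjusted p = 0.103). Igfbp2 had 67.8, 55.0 and 55.0 CPM in LRG1 cells and 54.1, 71.5 and 59.4 CPM in PBS cells. The groups overlapped, and the interval ran from -0.23 to 0.11 (log2 fold change -0.058, SE 0.082, adjusted p = 0.585). Igfbp5, which lies next to Igfbp2 on chromosome 1, had 1, 2 and 3 reads in LRG1 cells and 1, 0 and 0 reads in PBS cells. All 6 values are at or under 3 reads, the floor taken for a library (0.130 to 0.162 CPM, counting error only), so a difference was not detectable at this depth.

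**Figure D2:**
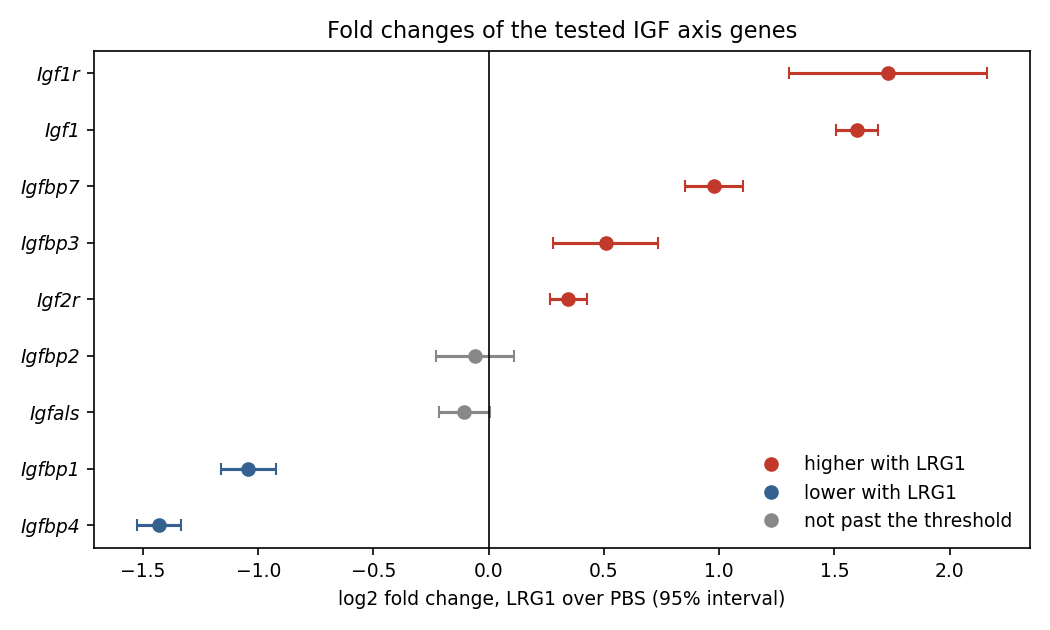
Log2 fold change of LRG1 over PBS (horizontal axis) for the 9 tested genes, with the 95% interval from edgeR's quasi-likelihood fit. Igf1r and Igf1 lie at 1.73 and 1.60, Igfbp4 and Igfbp1 at -1.43 and -1.04, and the intervals of Igfbp2 and Igfals include 0.

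Levels of different genes were compared as CPM per kilobase of annotated exon (GENCODE M21, mm10). In LRG1 cells the order was Igfbp1 (80.7 ± 4.08, SD, n = 3), Igf1 (73.0 ± 1.95), Igfbp7 (36.7 ± 0.501), Igfbp2 (32.1 ± 4.01), Igfbp4 (26.4 ± 1.28), Igf2r (25.3 ± 0.790), Igfals (14.8 ± 0.625), Igfbp3 (9.26 ± 0.500) and Igf1r (0.240 ± 0.0125). The libraries of Igfbp7 and Igfbp2 overlapped, as did those of Igfbp4 and Igf2r. In PBS cells the order was Igfbp1 (166 ± 18.0), Igfbp4 (71.3 ± 3.92), Igfbp2 (33.4 ± 4.83), Igf1 (24.1 ± 1.58), Igf2r (19.9 ± 0.434), Igfbp7 (18.6 ± 0.287), Igfals (15.9 ± 0.221), Igfbp3 (6.49 ± 1.68) and Igf1r (0.0715 ± 0.0215), with no overlap between neighbours. Igf1 thus had rank 2 in LRG1 cells and rank 4 in PBS cells, and Igfbp4 rank 5 in LRG1 cells and rank 2 in PBS cells. With the longest coding transcript as the length, a choice made after the values were seen, Igf1 had rank 1 in LRG1 cells (102 ± 2.75, against 80.7 ± 4.08 for Igfbp1) and again rank 4 in PBS cells. Which isoforms the reads came from is not known.

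The makeup of the IGFBP transcripts differed between the groups. Summed over the 6 member IGFBPs, the level was 196, 179 and 181 CPM per kilobase in LRG1 cells and 297, 277 and 314 CPM per kilobase in PBS cells, a ratio of means 1.60 times lower with LRG1. Igfbp1 made up 43.6 ± 0.234% of the sum in LRG1 cells and 56.0 ± 2.64% in PBS cells (SD, n = 3). The share of Igfbp4 was 14.3 ± 0.116% in LRG1 cells and 24.1 ± 0.699% in PBS cells.

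Igfbp7 made up 19.8 ± 0.795% in LRG1 cells and 6.31 ± 0.487% in PBS cells. Igfbp2, whose own level did not pass, made up 17.3 ± 1.29% in LRG1 cells and 11.4 ± 2.26% in PBS cells, and Igfbp3 5.02 ± 0.504% in LRG1 cells and 2.19 ± 0.547% in PBS cells. For these 5 genes the shares of the groups did not overlap, and they necessarily move together since they sum to 100%. The level of Igf1 relative to the IGFBP sum was 0.384, 0.407 and 0.393 in LRG1 cells and 0.0765, 0.0930 and 0.0759 in PBS cells, a ratio of means of 4.82. Without division by length it averaged 1.94 in LRG1 cells and 0.357 in PBS cells, a ratio of means of 5.45. Whether Igf1 stood below or above the IGFBP sum in LRG1 cells thus depended on the length division. Shares of reads not divided by length kept the sign of these differences but moved them by over 1.5 times for Igfbp1 (-4.58 percentage points LRG1 minus PBS, against -12.5 per length), Igfbp3 (4.79, against 2.82), Igfbp4 (-15.4, against -9.81) and Igfbp7 (8.57, against 13.5). These are transcript levels, and no protein was measured.

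**Figure D3:**
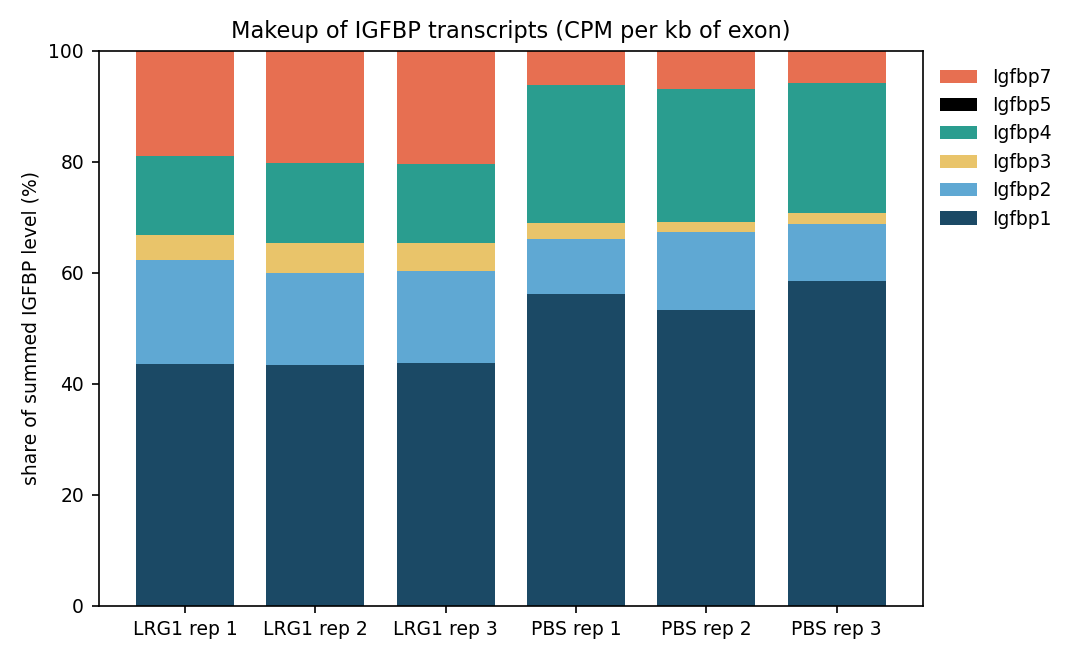
Share of each IGFBP in the summed IGFBP transcript level, in percent of CPM per kilobase of exon, stacked for each library with the LRG1 libraries on the left. Igfbp7 takes 18.9 to 20.4% in the LRG1 libraries and 5.86 to 6.83% in the PBS libraries; Igfbp5 is too scarce to be seen.

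Several members are transcribed in liver largely by cells other than hepatocytes, among them Igfbp3, Igfbp7 and Igf1r. In bulk samples, fewer cells of a type and less RNA per cell cannot be told apart. The 8 endothelial markers summed to 36.0 to 40.1 CPM in LRG1 libraries and 42.3 to 45.2 CPM in PBS libraries. Of 7 tested, Lyve1 and Stab2 fell, 2.24-fold and 2.04-fold, and 5 did not pass. Over all tested genes, 25.5% rose and 25.8% fell. The 8 markers of Kupffer cells and leukocytes summed to 181 to 206 CPM in LRG1 libraries and 222 to 266 CPM in PBS libraries, nearly all of it Cd68. Without Cd68 the sums overlapped, at 8.85 to 11.2 CPM in LRG1 libraries and 9.43 to 12.4 CPM in PBS libraries. Of 7 tested, 1 rose (Marco, a Kupffer cell receptor, 1.63-fold) and 4 did not pass. Cd5l and Cd68 fell, 2.06-fold and 1.28-fold. The median log2 fold change of the 7 was 0.31.

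The 11 stellate cell and fibroblast markers summed to 159 to 169 CPM in LRG1 libraries and 61.3 to 69.5 CPM in PBS libraries. Without the collagen gene Col1a1 they summed to 54.1 to 55.5 CPM in LRG1 libraries and 50.7 to 55.8 CPM in PBS libraries. Of 9 tested, 2 rose (Col1a1 9.82-fold and Acta2 1.21-fold), 1 fell (Reln, 1.86-fold) and 6 did not pass. No marker of these 3 lists was at 0 in every library. Clec4f, Lrat and Clec4g, which define Kupffer, stellate and sinusoidal endothelial cells, stayed under 1 CPM in the group means. Lrat had 0, 1 and 0 reads in LRG1 cells and 11, 4 and 5 reads in PBS cells, and was not tested. Others of these lists stood higher, such as Cdh5 (17.0 CPM in LRG1 cells and 16.1 CPM in PBS cells) and Col3a1 (8.32 and 9.35 CPM). The 6 bile duct markers summed to 4325 to 4643 CPM in LRG1 libraries and 4446 to 4630 CPM in PBS libraries, nearly all of it Spp1. Without Spp1 the sums did not overlap, at 86.8 to 90.5 CPM in LRG1 libraries and 69.0 to 74.3 CPM in PBS libraries. Most of this rest was Sox9, a bile duct transcription factor, at 84.3 CPM in LRG1 cells and 52.6 CPM in PBS cells. Of 3 tested, Sox9 rose 1.60-fold, Krt19, a duct keratin, was 5.66-fold lower and Spp1 did not pass. Cd68, Col1a1 and Spp1 were left out of these sums, and the single markers of all lists named, after their values were seen. The 9 hepatocyte markers summed to 23994 to 25038 CPM in LRG1 libraries and 26052 to 27346 CPM in PBS libraries, without overlap, most of it Alb. Of these 9, 5 fell, with Cps1 4.32-fold, Fgb 1.72-fold and Apoa1 1.54-fold lower, and 4 did not pass. Over all tested genes, 25.5% rose and 25.8% fell. The part of other cells in the values of the IGF axis was not tested.

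Growth hormone drives hepatic Igf1 through its receptor, JAK2 and STAT5. A list of 8 genes was examined beside it, holding steps of that route, STAT5 targets and transcription factors. With LRG1, 4 rose, 3 fell and 1 did not pass, with a median log2 fold change of 0.042. Among all tested genes 25.5% rose and 25.8% fell. Ghr, the receptor, had 231, 226 and 241 CPM in LRG1 cells and 133, 134 and 137 CPM in PBS cells (log2 fold change 0.79, adjusted p = 5.09e-14). Jak2 was 1.28-fold higher. The genes of STAT5 itself fell slightly. Stat5a averaged 24.1 ± 3.03 CPM in LRG1 cells and 28.4 ± 1.92 CPM in PBS cells, with overlapping libraries (log2 fold change -0.24, adjusted p = 0.0176). Stat5b averaged 68.2 ± 1.96 CPM in LRG1 cells and 78.5 ± 2.21 CPM in PBS cells, without overlap (log2 fold change -0.20, adjusted p = 0.000897). Cish, a STAT5 target and feedback inhibitor, had 56.8, 58.5 and 57.1 CPM in LRG1 cells and 18.6, 13.6 and 17.0 CPM in PBS cells. It was 3.50-fold higher. Of its annotated exon length, 7.46% overlaps Gm17041 and 4.07% overlaps Gm17040, both on the opposite strand. Socs2, another STAT5 target, averaged 25.8 ± 2.16 CPM in LRG1 cells and 28.8 ± 2.75 CPM in PBS cells and did not pass (adjusted p = 0.0990). Stat5a, Stat5b and Socs2 were named after their values were seen. Onecut1, a liver transcription factor, was 4.95-fold lower.

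Proteases that cut IGFBPs and the stanniocalcins that inhibit PAPP-A formed a list of 12, of which 8 were tested. One of these, Pappa, reached the count minimum in the LRG1 libraries alone, so its test was bound to favour a difference. Of the other 7 tested, 4 rose and 3 fell, with a median log2 fold change of 0.13. Among all tested genes 25.5% rose and 25.8% fell. Pappa, the PAPP-A protease that cuts IGFBP4, had 23, 28 and 21 reads in LRG1 cells and 0, 1 and 3 reads in PBS cells. It reached 1.06 to 1.21 CPM in LRG1 cells, and no fold or p is given for it. Adam12, a metalloprotease reported to cut IGFBP3 and IGFBP5, was 6.94-fold higher, with 20.0 ± 1.88 CPM in LRG1 cells and 2.89 ± 0.504 CPM in PBS cells. Htra1, a serine protease with IGFBP substrates, was 2.69-fold higher and Mmp14, a membrane metalloprotease, 1.52-fold higher. The stanniocalcin genes Stc1 and Stc2 had too few reads to be tested.

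Over all tested genes, 25.5% rose and 25.8% fell. Of 12 receptor-proximal genes, 5 rose, 3 fell and 4 did not pass, with a median log2 fold change of 0.058. The genes that fell were Irs1, Grb14 and Insr, at 4.69-fold, 1.63-fold and 1.58-fold lower. Irs1 encodes a docking protein that the receptors of IGF1 and insulin share, and 30.9% of its annotated exon length overlaps a transcript on the opposite strand. Insr thus fell while its relative Igf1r rose, and in CPM Insr stood at 128 ± 2.47 in LRG1 cells and 203 ± 5.68 in PBS cells. Grb10, an adaptor that inhibits both receptors, was 1.89-fold higher.

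All 9 regulators known to bear on Igfbp1 transcription were tested. Of these, 5 fell and 4 did not pass, with a median log2 fold change of -0.21. Among all tested genes 25.8% fell and 51.4% passed in either direction. A bearing on the fall of Igfbp1 was not tested. Foxa2, Foxa1, Hif1a and Foxa3 had log2 fold changes of -0.59, -0.51, -0.41 and -0.25. Foxo1, the insulin-inhibited factor that acts on the response element shown above, had 31.3 ± 2.17 CPM in LRG1 cells and 31.7 ± 1.67 CPM in PBS cells and did not pass (adjusted p = 0.863). Its transcript level says nothing of where the protein lies in the cell. Foxo1 was named after its values were seen.

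**Figure D4:**
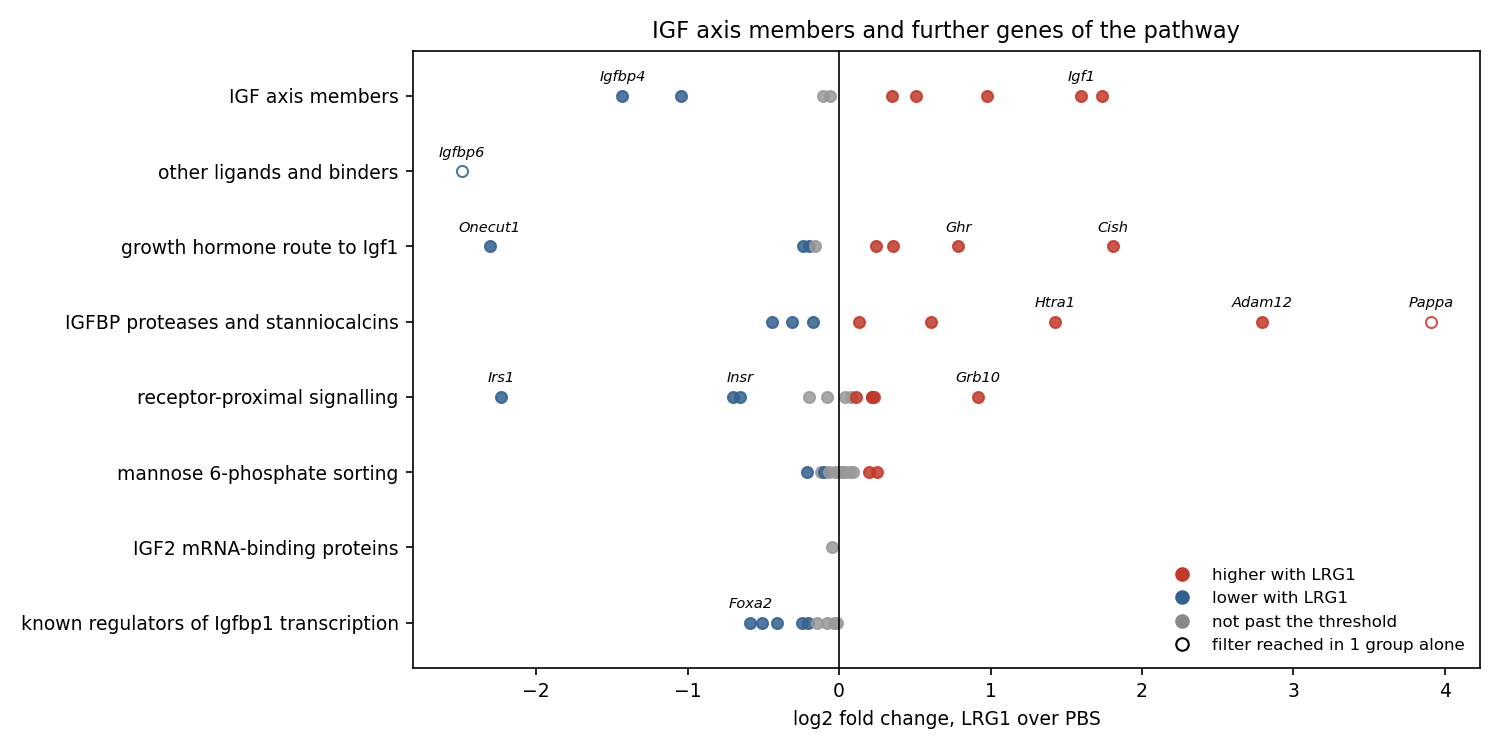
Log2 fold change of LRG1 over PBS (horizontal axis) for the tested IGF axis genes (top row) and the tested genes of 7 further lists. Each point is a gene, red where it rose, blue where it fell and grey where it did not pass; open points (Pappa and Igfbp6) are genes that reached the count minimum in 1 group alone, whose place is not read. The filled points run from Onecut1 at -2.31 to Adam12 at 2.80.

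Igfbp6, a binding protein with a preference for IGF2 that is not among the members, had 4, 7 and 2 reads in LRG1 cells and 36, 15 and 17 reads in PBS cells. These are 0.201 ± 0.101 CPM in LRG1 cells and 1.18 ± 0.560 CPM in PBS cells. It reached the count minimum in the PBS libraries alone, so no fold or p is given. PBS replicate 1 was its highest library.

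The profile of Igf1 over the 6 libraries was compared with that of 11010 other genes of at least moderate level. Surf4, which encodes an endoplasmic reticulum export receptor, Scara5, a scavenger receptor gene, and Zfp703, a zinc finger protein gene, had the highest Pearson r of log2 CPM with it, 0.9998, 0.9997 and 0.9997. Their log2 fold changes were 0.28, 1.55 and 1.39. In all, 407 genes had an r above 0.99, since the libraries fall into 2 treatment groups. Any gene higher with LRG1 scores high if its spread within groups is small beside the gap between them.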

How the data were processed

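RNA was sequenced from 3 LRG1 and 3 PBS samples. Per the labels' protocols, about 500 ng of total RNA entered a poly(A)-selecting, strand-marking kit, read single-end at 50 nt. The authors deposited a file of raw counts by gene symbol for each library, made with bcl2fastq, TopHat2 and HTSeq on mm9 per the submitters' processing notes. Neither tool versions nor the annotation, the strand setting or the handling of multiply aligned reads was stated. The 5 closing summary rows of HTSeq were left out: 8.96 to 10.3% of uniquely aligned reads fell in no gene and 0.258 to 0.280% were ambiguous, while non-unique alignments made up 58.2 to 59.3% of all row totals.

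Genes were kept by filterByExpr (minimum count 10) and tested with edgeR 4.0.16 (R 4.3.3): TMM scaling, quasi-likelihood F test on treatment alone, Benjamini-Hochberg adjustment over all 12301 tested genes, threshold 0.05. SE and 95% intervals were derived from the F statistic. CPM use TMM-scaled library sizes. An exact permutation test of 3 against 3 cannot give a p under 0.10, so shares are described without one. The members and gene lists were chosen with earlier results of these data known. Named were all members, up to 4 called genes per list with the largest absolute log2 fold change, Ghr, Igf2, Igfbp6, Insr and Irs1, and the 3 genes most like the member with the smallest p (average log2 CPM of at least 1, pseudocount 1). Alternatives were other scalings, filters, DESeq2 1.42.0, limma-voom (limma 3.58.1), a robust fit, a replicate block and leaving out each library.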

Additional observations from a re-analysis of the deposited data

How the results depend on the processing

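The 7 calls of Igf1, Igf1r, Igf2r, Igfbp1, Igfbp3, Igfbp4 and Igfbp7 passed in the same direction in each of the 15 alternatives, and Igfals and Igfbp2 passed in none. The direction of Igfbp2 turned without PBS replicate 2, to a log2 fold change of 0.061 (adjusted p = 0.540); leaving out single libraries gave -0.17 to 0.061. Leaving out 1 library gave 5630 to 6015 genes past the threshold, against 6317 with all libraries; 2766 to 2932 of them rose and 2864 to 3089 fell. DESeq2 called 5521 genes. With the replicate block 5890 genes passed, 2906 higher and 2984 lower, and the same members were called. Same-numbered LRG1 and PBS libraries had correlations of -0.14, -0.020 and -0.13 in their deviations from the group means, so the numbers were not taken to pair them. Without division by length the differences in IGFBP shares (LRG1 minus PBS) kept their sign but were -4.58 percentage points for Igfbp1 (-12.5 per length), 6.64 for Igfbp2 (5.93), 4.79 for Igfbp3 (2.82), -15.4 for Igfbp4 (-9.81) and 8.57 for Igfbp7 (13.5). With the longest coding transcript as the length those of Igfbp4 and Igfbp7 were -10.6 and 12.2. Depth limits Igf1r, with 15 to 95 reads per library, and leaves Igfbp5 unmeasured (adjusted p = 0.256 with no filter on low counts).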

Other observations

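Genes of the mannose 6-phosphate route, which with Igf2r carries lysosomal enzymes, differed little. Of 12 tested, 2 rose, 2 fell and 8 did not pass, with a median log2 fold change of 0.0091. Among all tested genes 25.5% rose and 25.8% fell. Gga1 and Gga3, adaptors that load the receptors into vesicles, were 1.19-fold and 1.15-fold higher, and Gga3 overlaps Mrps7 on the opposite strand. Vps26a, a subunit of the retromer that recycles Igf2r, was 1.16-fold lower and M6pr, the smaller mannose 6-phosphate receptor, 1.07-fold lower. Ctsd, a lysosomal protease sorted this way, averaged 2024 ± 12.9 CPM in LRG1 cells and 2002 ± 20.2 CPM in PBS cells and did not pass (adjusted p = 0.735); it was named after its values were seen. Of the 3 genes for IGF2 mRNA-binding proteins only Igf2bp2 was tested, at 18.9 ± 0.859 CPM in LRG1 cells and 19.5 ± 0.946 CPM in PBS cells (adjusted p = 0.654).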
